A study of Saccharomyces cerevisiae with 10 samples.

Results

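The genes described here make thiamine (vitamin B1) and vitamin B6 in budding yeast. They are THI4 (YGR144W), THI6 (YPL214C), THI7 (YLR237W), THI20 (YOL055C), THI21 (YPL258C), SNZ1 (YMR096W), SNZ2 (YNL333W), SNZ3 (YFL059W) and SNO1 (YMR095C), a list of 9 genes that was drawn up because THI4 and SNZ3 differ between strains with truncated Epl1 and a strain without Eaf1. Members were found by the gene symbol of the array spots. Of the 9 genes, 8 had spots, 2 each, among 5315 named genes and 6377 features in all. No spot carried the symbol SNZ2, which was not analysed here.

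RNA from 5 strains was hybridised to 10 two-channel spotted arrays, 2 per strain, each against the same reference pool. Epl1 and Eaf1 are subunits of NuA4, a histone acetyltransferase: Epl1 anchors the catalytic module, and Eaf1 is the scaffold on which the whole complex assembles. The strain without EAF1 is called the eaf1 deletion here; its titles name an HA tag and its source label names none. Epl1 1:380 and Epl1 1:485 carry FLAG-tagged Epl1 truncated to the residues in the name, of 832 residues by gene length in the R64 assembly. Eaf1 1:982 is labelled a C-terminal truncation with an HA tag, yet the EAF1 gene spans 982 residues in the same assembly, so the label covers the whole protein, and this strain served as the control of the deletion. Tagged Epl1 carries a FLAG tag and no truncation in its label, and served as the control of both truncations. Cultures were harvested from plates in mid-log growth. The labels name no separate cultures or clones, so p-values reflect only how far these arrays spread, and that spread may be technical.

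The dyes were swapped between the replicates of a strain, with the strain in Cy3 in replicate a and in Cy5 in replicate b, and every value below is a log2 ratio of strain over pool, or a difference of such ratios. A gene was called where its adjusted p (limma, Benjamini and Hochberg over all 6377 features) was under 0.05 and its fold over 1.7, a log2 difference of 0.77. In the eaf1 deletion EAF1 itself had log2 ratios of -1.98 and -2.15, against 0.69 and 0.57 in Eaf1 1:982, a difference of -2.70 ± 0.10 (SE, n = 2 each). In tagged Epl1 it had 0.17 and 0.08, so Eaf1 1:982 had more EAF1 signal than the other control. Differences from Eaf1 1:982 below are from that strain, and the cause of its higher EAF1 signal was not tested. Between 97.8% and 99.4% of gene spots per array lay above background in the strain's channel. The RNA of Epl1 1:380 replicate b was isolated, per its label, by the protocol used for the pool, unlike that of all other strain samples; THI4 and SNZ3 are therefore given by replicate below. With arrays as the samples, fewer cells of a kind and less RNA per cell cannot be told apart.

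Thiamine diphosphate is the cofactor of pyruvate decarboxylase, transketolase and the 2-oxo acid dehydrogenases. Yeast joins a thiazole unit to a pyrimidine unit to build it, and transcribes most genes of the pathway when thiamine is scarce. The pyrimidine unit is made by the Thi5 family from pyridoxal phosphate, the active form of vitamin B6, which the Snz and Sno proteins assemble as synthase and glutaminase subunits, so the pathways are joined. In the gene order of R64, SNO1 lies beside SNZ1, SNZ2 lies between SNO2 and THI12, and SNZ3 lies between SNO3 and THI5. SNZ2 and SNZ3 are near-identical copies, as are SNO2 and SNO3 and the genes of the Thi5 family, and THI20 resembles THI21. The probe sequences were not used here, so the signal of a spot named for one copy cannot be told apart from that of another.

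THI4 encodes the thiazole synthase, an enzyme that gives up a sulfur atom of its own to each product. Its log2 ratio was 0.25 and 0.27 in the eaf1 deletion, 1.25 and 1.09 in Epl1 1:380, 1.04 and 1.20 in Epl1 1:485, 0.27 and 0.40 in Eaf1 1:982 and 0.20 and 0.28 in tagged Epl1 (replicates a and b). The 4 arrays of truncated Epl1 were high and lay above the other 6 arrays without overlap, while the eaf1 deletion, Eaf1 1:982 and tagged Epl1 lay close together. The means were 0.26 ± 0.02 in the deletion, 1.17 ± 0.12 in Epl1 1:380, 1.12 ± 0.11 in Epl1 1:485, 0.34 ± 0.09 in Eaf1 1:982 and 0.24 ± 0.06 in tagged Epl1 (SD, n = 2 each). Ordered by level, Epl1 1:380 came first, then Epl1 1:485, Eaf1 1:982, the deletion and tagged Epl1. The step between the truncations and Eaf1 1:982 exceeded the spread between replicates, and the other neighbours in this order differed by less than it.

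The eaf1 deletion had 0.91 ± 0.10 less THI4 signal than Epl1 1:380 and 0.86 ± 0.10 less than Epl1 1:485 on the log2 scale (SE), which is the contrast the list was drawn up on, so it carries no test. Against its own control the deletion differed by -0.07 ± 0.10, Epl1 1:380 by 0.93 ± 0.10 and Epl1 1:485 by 0.88 ± 0.10. The last 2 are 1.90-fold and 1.85-fold, and they too rest on the arrays behind the choice. By replicate, the excess over tagged Epl1 was 1.05 (a) and 0.81 (b) in Epl1 1:380 and 0.84 (a) and 0.92 (b) in Epl1 1:485. Without replicate b of Epl1 1:380, whose RNA was isolated by the other protocol, that strain's excess was 1.01. Every one of these exceeded the largest gap between replicates of THI4, 0.16. Both spots were dim, with a mean intensity at the percentile 18.7 of all features and strain intensities of 137 to 707 units, and were above background in both channels on 10 of 10 arrays.

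SNZ3 encodes a synthase subunit for pyridoxal phosphate. Its log2 ratio was -0.17 and -0.06 in the eaf1 deletion, 0.97 and 0.89 in Epl1 1:380, 0.83 and 0.90 in Epl1 1:485, 0.03 and 0.18 in Eaf1 1:982 and 0.51 and 0.46 in tagged Epl1. The truncations were highest, the deletion was lowest, and the controls did not overlap: tagged Epl1 lay between the truncations and Eaf1 1:982. The means were -0.11 ± 0.08 in the deletion, 0.93 ± 0.05 in Epl1 1:380, 0.87 ± 0.05 in Epl1 1:485, 0.11 ± 0.11 in Eaf1 1:982 and 0.49 ± 0.03 in tagged Epl1 (SD, n = 2 each). Of neighbours in the order of levels, only the truncations overlapped.

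The deletion lay below Epl1 1:380 by 1.04 ± 0.09 and below Epl1 1:485 by 0.98 ± 0.09 in SNZ3 (SE; the contrast behind the choice, with no test). Set against their controls, the values were smaller: -0.22 ± 0.09 for the deletion, 0.44 ± 0.09 for Epl1 1:380 (0.48 without its replicate b) and 0.38 ± 0.09 for Epl1 1:485. The controls themselves stood apart, with Eaf1 1:982 lower than tagged Epl1 by 0.38 ± 0.09. That difference had an unadjusted p of 0.00216 and an adjusted p of 0.9998 by limma, and an adjusted p of 0.135 with the replicate letter as a block, so it was not called. If SNZ3 was chosen on differences from own controls, these control arrays entered the choice. Its p values between the controls are therefore a description only. For THI4, by contrast, the controls differed by 0.10 ± 0.10 with overlapping arrays. For THI4 the gap between the deletion and Epl1 1:380 (0.91) was thus close to the excess of Epl1 1:380 over tagged Epl1 (0.93), while for SNZ3 the gap (1.04) went beyond that excess (0.44).

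**Figure D1:**
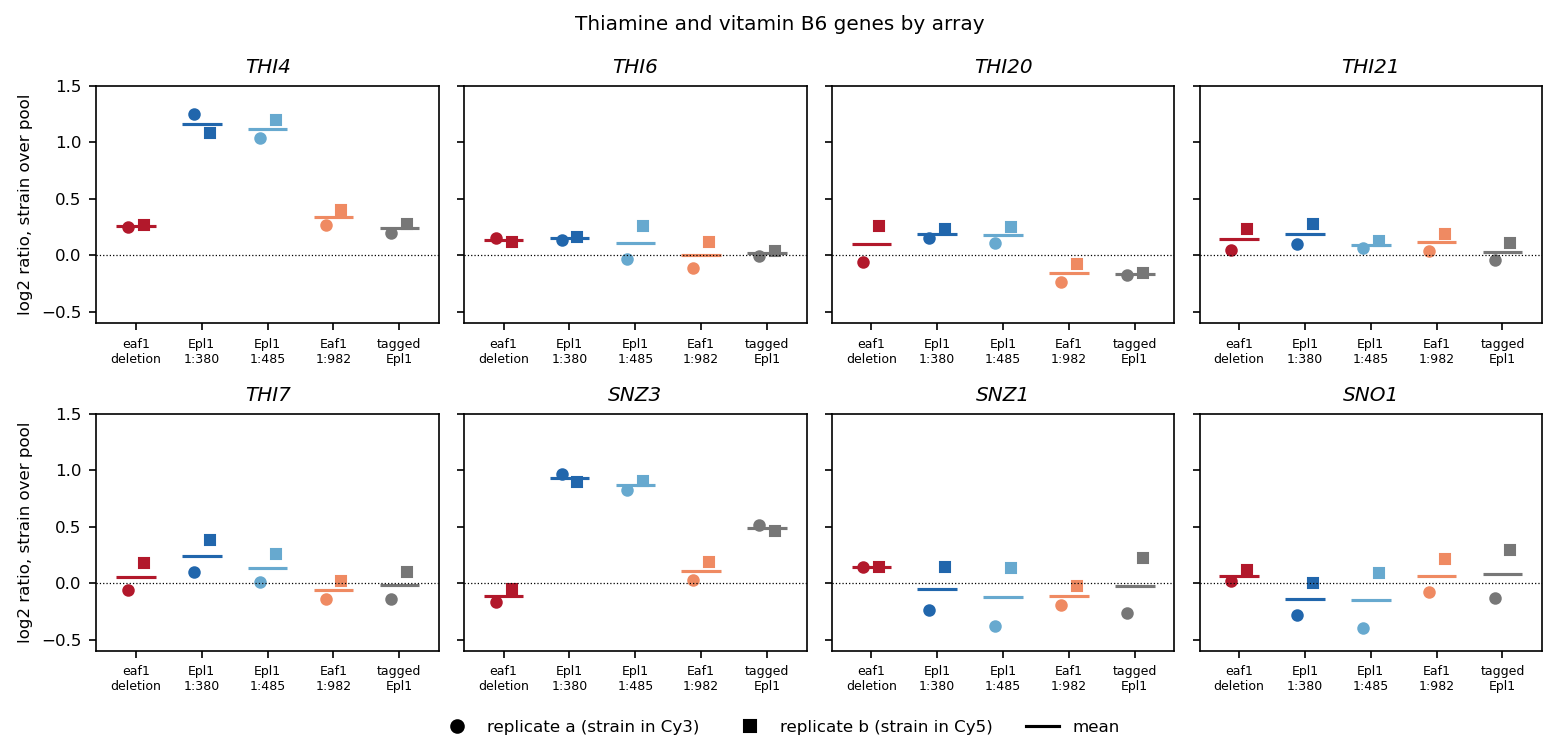
Log2 ratio of strain over pool of each measured member, with 1 point per array (circle, replicate a; square, replicate b) and a line at the mean of each strain. THI4 is above 1.0 in the 4 arrays of truncated Epl1 and at most 0.40 elsewhere; SNZ3 steps down through truncations, tagged Epl1, Eaf1 1:982 and deletion, and the other members stay between -0.40 and 0.38.

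The members were chosen on the deposited log2 ratios, which the authors normalised in another way, and those values were close to the ones above. In them THI4 was 0.23 and 0.21 in the eaf1 deletion, 1.25 and 1.08 in Epl1 1:380, 1.05 and 1.17 in Epl1 1:485, 0.32 and 0.39 in Eaf1 1:982 and 0.23 and 0.25 in tagged Epl1. SNZ3 was -0.17 and -0.05 in the eaf1 deletion, 0.98 and 0.88 in Epl1 1:380, 0.81 and 0.92 in Epl1 1:485, 0.04 and 0.21 in Eaf1 1:982 and 0.55 and 0.52 in tagged Epl1. The order of the strains was the same in SNZ3, and in THI4 it differed only in that tagged Epl1 lay above the deletion.

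THI20 encodes a kinase of the pyrimidine unit that also has a thiaminase domain. Its log2 ratio was -0.06 and 0.26 in the eaf1 deletion, 0.15 and 0.23 in Epl1 1:380, 0.11 and 0.25 in Epl1 1:485, -0.23 and -0.08 in Eaf1 1:982 and -0.18 and -0.16 in tagged Epl1. Both controls were low and overlapped each other; the mutants lay above them without overlap against their own control, although the deletion's replicates stood 0.32 apart. THI20 was higher by 0.36 ± 0.12 in Epl1 1:380, by 0.35 ± 0.12 in Epl1 1:485 and by 0.26 ± 0.12 in the deletion (SE), with adjusted p of 0.073, 0.087 and 0.218 by limma, so none was called. With the replicate letter as a block the adjusted p became 0.00266, 0.00349 and 0.0197, at folds of 1.28, 1.27 and 1.19, which are under the limit of 1.7. The share of all features with an adjusted p under 0.05 in that fit was not counted. Adjusted p values with the block, here and for the genes below, therefore cannot be placed against all features.

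THI21, a paralog of THI20 with the same kinase function, had strain means of 0.14 ± 0.13 in the deletion, 0.19 ± 0.13 in Epl1 1:380, 0.10 ± 0.04 in Epl1 1:485, 0.11 ± 0.10 in Eaf1 1:982 and 0.03 ± 0.11 in tagged Epl1 (SD, n = 2 each). Its strains overlapped in all 5 tested comparisons. THI6, which joins the units into thiamine phosphate, had means between 0.00 and 0.15, and THI7, the thiamine transporter of the plasma membrane, between -0.06 and 0.24. Against tagged Epl1, THI6 differed by 0.13 ± 0.11 in Epl1 1:380 and 0.09 ± 0.11 in Epl1 1:485, and THI7 by 0.26 ± 0.15 and 0.15 ± 0.15. The deletion differed from Eaf1 1:982 by 0.14 ± 0.11 in THI6 and 0.12 ± 0.15 in THI7, and neither gene was called in any comparison. Between replicates of a strain THI6 differed by up to 0.29 and THI7 by up to 0.28, as much as most of these differences. Replicate b was the higher in 4 of 5 strains for THI6 and 5 of 5 for THI7. Within replicates a and b, THI7 differed from tagged Epl1 by 0.23 and 0.28 in Epl1 1:380 and by 0.15 and 0.16 in Epl1 1:485. For THI6 these values were 0.13 and 0.13 in Epl1 1:380, and -0.03 and 0.22 in Epl1 1:485. With the replicate letter as a block, THI7 had an adjusted p of 0.00435 in Epl1 1:380 and THI21 one of 0.0478, with folds of 1.20 and 1.12.

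SNZ1 and SNO1, the divergent synthase and glutaminase pair, had no call in any tested comparison. SNZ1 averaged 0.14 ± 0.002 in the deletion, -0.05 ± 0.27 in Epl1 1:380, -0.12 ± 0.36 in Epl1 1:485, -0.11 ± 0.12 in Eaf1 1:982 and -0.02 ± 0.35 in tagged Epl1 (SD, n = 2 each). SNO1 averaged 0.07 ± 0.06 in the deletion, -0.14 ± 0.20 in Epl1 1:380, -0.15 ± 0.35 in Epl1 1:485, 0.06 ± 0.21 in Eaf1 1:982 and 0.08 ± 0.30 in tagged Epl1. The replicates of a strain lay up to 0.51 apart in SNZ1 and 0.49 in SNO1, more than any of the tested differences between strain means, and replicate b was the higher in 4 of 5 strains for SNZ1 and 5 of 5 for SNO1. The largest tested difference was 0.25 ± 0.21 in SNZ1 for the deletion and -0.24 ± 0.20 in SNO1 for Epl1 1:485, with adjusted p of 0.531 and 0.495 by limma. The 95% intervals of SNZ1, without the replicate letter in the fit, ran from -0.52 to 0.47 in Epl1 1:380, from -0.60 to 0.39 in Epl1 1:485 and from -0.24 to 0.75 in the deletion. Within replicates a and b, SNZ1 differed from tagged Epl1 by 0.03 and -0.08 in Epl1 1:380 and by -0.11 and -0.09 in Epl1 1:485, closer to 0 than SNZ3, whose values were 0.46 and 0.43, and 0.32 and 0.44. SNO1 was lower than tagged Epl1 in each of these 4 pairs, by 0.15 to 0.29, with adjusted p of 0.0600 in Epl1 1:380 and 0.0488 in Epl1 1:485 when the replicate letter was a block, at folds under the limit. In the deposited ratios, fitted by limma without the block, SNO1 differed by -0.12 and -0.13, with adjusted p of 0.518 and 0.489. Its spots were dim, at the percentile 13.5 of mean intensity.

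Apart from THI4 and SNZ3, none of the 6 members tested was called against its control in Epl1 1:380, where 3.43% of all features were called, in Epl1 1:485 (2.41%) or in the deletion (2.46%). At an unadjusted p under 0.05 without the block, 1 of 6 passed in each truncation (THI20) and 0 of 6 in the deletion. Of all features, 32.6% passed in Epl1 1:380, 30.5% in Epl1 1:485 and 26.3% in the deletion. With the replicate letter as a block, THI20, THI7, THI21 and SNO1 had an adjusted p under 0.05 in some comparisons, as given above. The counts thus depend on the fit, and the share of features under 0.05 with the block was not counted. The arrays of a mutant and its control did not overlap in 4 of the 8 members in Epl1 1:380 (56.6% of features), in 3 of 8 in Epl1 1:485 (53.5%) and in 4 of 8 in the deletion (54.5%). Shares of 8 genes are too coarse to be read as above or below those of all features. THI4 and SNZ3, which chose the list, are among the members without overlap in each truncation. The median difference of the members was 0.21 in Epl1 1:380, 0.12 in Epl1 1:485 and 0.07 in the deletion, beside -0.01 over all features in each. Without THI4 and SNZ3, the median of the other 6 was 0.14 in Epl1 1:380, 0.08 in Epl1 1:485 and 0.13 in the deletion, and the order of the medians was different. Both truncation comparisons share tagged Epl1 as control.

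**Figure D2:**
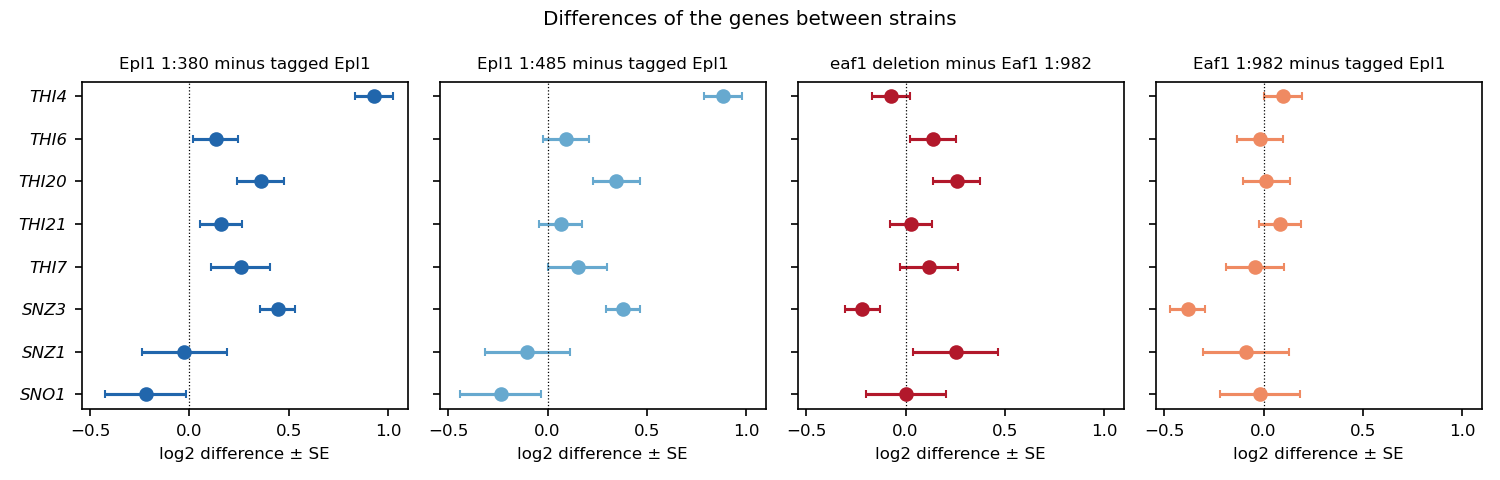
Difference in log2 ratio of each member in 4 comparisons, 1 panel each, with bars of ± 1 SE from the linear model. THI4 and SNZ3 lie at 0.93 and 0.44 for Epl1 1:380; SNZ3 is below 0 in the deletion (-0.22) and in Eaf1 1:982 relative to tagged Epl1 (-0.38), and the bars of SNZ1 and SNO1 are the widest.

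The deletion set directly against the truncations shows the same split within the list. Besides THI4 and SNZ3, the 6 other members lay between -0.18 and 0.20 relative to Epl1 1:380 and between -0.08 and 0.27 relative to Epl1 1:485. Arrays did not overlap in 3 of 8 members against Epl1 1:380, beside 42.8% of features, and in 3 of 8 against Epl1 1:485, beside 39.4%. They were THI4 and SNZ3, lower in the deletion, and as a higher gene SNO1 against Epl1 1:380 and SNZ1 against Epl1 1:485. These contrasts chose the list, so the counts are a description.

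The truncations were alike in these genes as far as 2 arrays each allow. Epl1 1:380 exceeded Epl1 1:485 by 0.01 to 0.11 in the 8 members, no member was called, and 0% of all features were called by limma, with 53 (0.831%) at an unadjusted p under 0.05. Their arrays overlapped in 8 of 8 members, where 15% of features did not overlap. The lowest unadjusted p of a member was 0.41, in THI21. The 95% interval of the difference ran from -0.17 to 0.26 in THI4 and from -0.13 to 0.26 in SNZ3, so differences up to those bounds remain possible. In SNZ1 it ran from -0.42 to 0.57. Between the controls, Eaf1 1:982 minus tagged Epl1, 0% of features were called and 53 (0.831%) had an unadjusted p under 0.05. SNZ3, on which the list was drawn up, was the 1 member of 8 among them. SNZ3 was also the 1 member whose arrays did not overlap, as in 14.9% of features. The p values and intervals for both of these comparisons came from the fit without the replicate letter. Arrays of the same letter shared deviations (r of 0.64 to 0.87), which that fit counts as error. With the letter as a block, 0 features were called in either comparison.

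Of the other genes of thiamine supply, 13 of 16 had spots; THI5, THI12 and THI13 were not named on the array. THI11, a member of the Thi5 family that makes the pyrimidine unit, was called in Epl1 1:380. Its log2 ratio was 0.68 and 0.56 in the eaf1 deletion, 0.84 and 0.73 in Epl1 1:380, 0.57 and 0.42 in Epl1 1:485, 0.03 and 0.01 in Eaf1 1:982 and -0.06 and -0.21 in tagged Epl1. It was high in the deletion as well as in both truncations, without overlap with the controls, whereas the deletion's arrays of THI4 overlapped those of Eaf1 1:982. THI11 rose by 0.92 ± 0.09 in Epl1 1:380 (SE; 1.89-fold, adjusted p = 0.000782 by limma), and was higher by 0.64 ± 0.09 in Epl1 1:485 (adjusted p = 0.00464) and by 0.60 ± 0.09 in the deletion (adjusted p = 0.00595), where folds of 1.55 and 1.51 kept it under the limit. With median centring the difference in Epl1 1:380 was 1.09 at an adjusted p of 0.0962, and with centring on added RNA 1.34 at 0.192, which ends the call.

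Further genes of this list passed the adjusted p but not the fold, as did many others: an adjusted p under 0.05 alone was met by 18.6% of features in Epl1 1:380, 15.7% in Epl1 1:485 and 11.4% in the deletion. PHO3, a thiamine-repressed acid phosphatase that frees thiamine from its phosphates, had log2 ratios of 0.33 and -0.14 in the deletion, -0.71 and -0.71 in Epl1 1:380, -0.56 and -0.71 in Epl1 1:485, -0.15 and -0.11 in Eaf1 1:982 and 0.05 and -0.16 in tagged Epl1. It was low in the truncations without overlap, opposite in sign to THI4 and THI11, by -0.66 ± 0.15 in Epl1 1:380 (adjusted p = 0.0195) and -0.58 ± 0.15 in Epl1 1:485 (adjusted p = 0.0364 by limma), and in the deletion its arrays overlapped Eaf1 1:982. Without replicate b of tagged Epl1 the difference in Epl1 1:380 was -0.77 and PHO3 was called. THI2, an activator of thiamine genes, was higher by 0.39 ± 0.08 in Epl1 1:380 (adjusted p = 0.0121), 0.32 ± 0.08 in Epl1 1:485 (adjusted p = 0.0299) and by 0.17 ± 0.08 in the deletion (adjusted p = 0.211). PET18 was higher by 0.28 ± 0.08 and 0.36 ± 0.08 in the truncations, with adjusted p of 0.0489 and 0.0234. Of the 13, THI11 alone was called in Epl1 1:380, and none was called in Epl1 1:485 or the deletion; medians were 0.08, 0.09 and 0.08. Of all features, 3.43%, 2.41% and 2.46% were called in these comparisons, so counts in 13 genes are too small to be set above or below them.

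Other genes of this list that the naming rule took did not pass the adjusted p. NRT1, a nicotinamide riboside transporter that also takes up thiamine, had log2 ratios of -0.13 and -0.30 in the deletion, 0.29 and 0.35 in Epl1 1:380, 0.23 and 0.53 in Epl1 1:485, -0.13 and -0.07 in Eaf1 1:982 and 0.05 and 0.28 in tagged Epl1. Eaf1 1:982 lay below tagged Epl1 by 0.26 ± 0.12 in NRT1 (SE), without overlap. TPC1, the mitochondrial thiamine diphosphate carrier, differed by 0.22 ± 0.09 in the deletion. THI74 differed by -0.14 ± 0.09 between Epl1 1:380 and Epl1 1:485, and THI80, the kinase that makes thiamine diphosphate, by 0.13 ± 0.30 between Eaf1 1:982 and tagged Epl1.

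**Figure D3:**
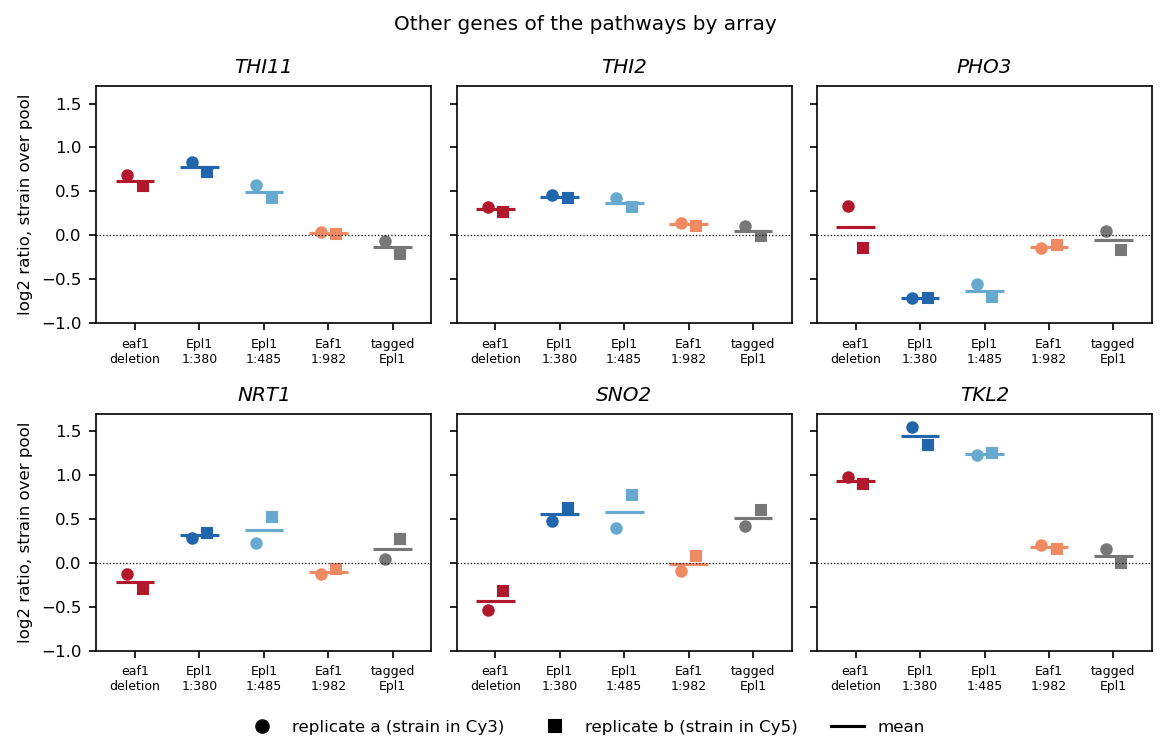
Log2 ratio of strain over pool of 6 further genes of the pathways, 1 point per array (circle, replicate a; square, replicate b), with a line at the strain mean. THI11 and TKL2 are high in the deletion and both truncations, PHO3 is low in the truncations at -0.56 or below, and SNO2 and NRT1 are lowest in the deletion.

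Of the other vitamin B6 genes, 5 of 6 had spots and none was called in any of the 5 tested comparisons. Of all features, 3.43% were called in Epl1 1:380, 2.41% in Epl1 1:485 and 2.46% in the deletion. Between the truncations and between the controls 0% were called. SNO2, the glutaminase partner of SNZ2, had log2 ratios of -0.53 and -0.32 in the eaf1 deletion, 0.48 and 0.63 in Epl1 1:380, 0.40 and 0.77 in Epl1 1:485, -0.10 and 0.08 in Eaf1 1:982 and 0.42 and 0.61 in tagged Epl1. As in SNZ3 the deletion was lowest, Eaf1 1:982 lay above it and tagged Epl1 above that; unlike SNZ3, the truncations overlapped tagged Epl1. SNO2 differed by -0.42 ± 0.15 in the deletion relative to Eaf1 1:982 (SE; adjusted p = 0.108 by limma), and by 0.04 ± 0.15 and 0.07 ± 0.15 in Epl1 1:380 and Epl1 1:485 relative to tagged Epl1. Eaf1 1:982 lay below tagged Epl1 by 0.52 ± 0.15 with an unadjusted p of 0.00692 and an adjusted p of 0.9998; with the replicate letter as a block the adjusted p was 0.0166, and in the deposited ratios 0.00828, at a fold under the limit.

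The remaining vitamin B6 genes moved little. PDX3, the oxidase that makes pyridoxal phosphate, TPN1, the pyridoxine importer, and the pyridoxal kinase BUD16 with its relative BUD17 differed by -0.15 to 0.18 from their controls in the mutants. The lowest of these was BUD17 in Epl1 1:380 (-0.15 ± 0.12) and the highest BUD17 in the deletion (0.18 ± 0.12). The median of the 5 genes was 0.01 in Epl1 1:380, 0.01 in Epl1 1:485 and -0.10 in the deletion.

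Among 10 enzymes that use thiamine diphosphate, TKL2, the minor transketolase, was called in Epl1 1:380 and Epl1 1:485, where 3.43% and 2.41% of all features were called. Its log2 ratio was 0.98 and 0.90 in the eaf1 deletion, 1.54 and 1.34 in Epl1 1:380, 1.23 and 1.25 in Epl1 1:485, 0.20 and 0.16 in Eaf1 1:982 and 0.16 and 0.00 in tagged Epl1. All mutants were high and none overlapped a control. TKL2 rose by 1.36 ± 0.09 in Epl1 1:380 (2.57-fold, adjusted p = 0.000174) and by 1.16 ± 0.09 in Epl1 1:485 (2.23-fold, adjusted p = 0.000421 by limma). In the deletion it was higher by 0.76 ± 0.09 (adjusted p = 0.00217), where the fold of 1.69 lay just under the limit; it was called there with print-tip loess, in the deposited ratios, without replicate b of the deletion and without replicate a of Eaf1 1:982. With median centring (difference 1.29, adjusted p = 0.0523) and with centring on added RNA (1.45, adjusted p = 0.132) TKL2 was not called in Epl1 1:485, although the difference was no smaller.

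The other 9 enzymes were not called. ILV2, acetolactate synthase, differed by 0.42 ± 0.11 in the deletion (SE; adjusted p = 0.0522 by limma). KGD1, of the 2-oxoglutarate dehydrogenase, differed by 0.25 ± 0.15 in Epl1 1:380, 0.36 ± 0.15 in Epl1 1:485 and 0.31 ± 0.15 in the deletion. PDA1, of pyruvate dehydrogenase, differed by 0.13 ± 0.14 and 0.20 ± 0.14 in the truncations and by -0.25 ± 0.14 in the deletion, where its arrays overlapped Eaf1 1:982. ARO10, a 2-oxo acid decarboxylase, differed by 0.18 ± 0.07 and 0.21 ± 0.07 in the truncations. Among the pyruvate decarboxylases and PDB1, differences that the naming rule took were -0.17 ± 0.08 in PDB1 and 0.19 ± 0.20 in PDC5 between Epl1 1:380 and Epl1 1:485, and -0.15 ± 0.12 in PDC1 and -0.14 ± 0.20 in PDC5 between Eaf1 1:982 and tagged Epl1. PDC1 had spots saturated in the Cy5 channel on 3 arrays and PDC5 on 5, which limits how large a difference these could show. Saturation in the Cy3 channel was not counted. The list's medians were 0.03, 0.03 and -0.03 in Epl1 1:380, Epl1 1:485 and the deletion.

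**Figure D4:**
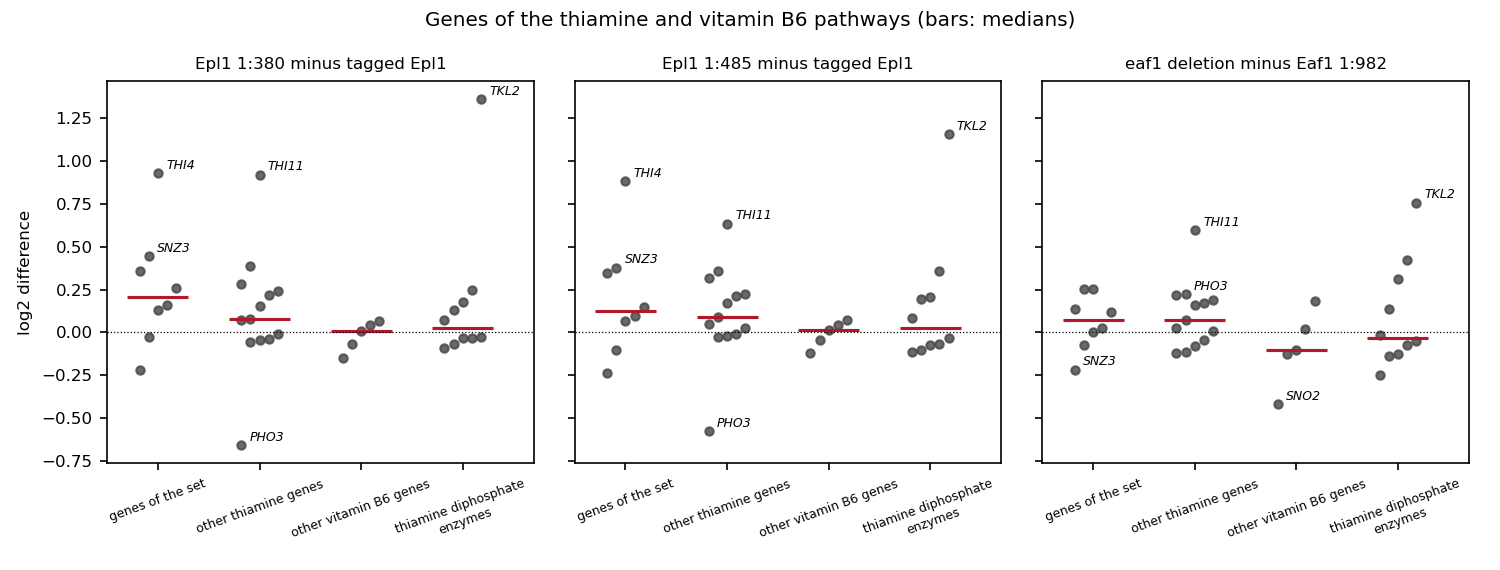
Difference in log2 ratio between each mutant and its control for the measured genes of the 4 lists, 1 point per gene, with a bar at the list's median. The medians lie between -0.10 and 0.21, and single genes (THI4 in the truncations, THI11 and TKL2 above, PHO3 in the truncations and SNO2 in the deletion below) stand away from them.

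Across the 10 arrays, after the mean of each replicate letter was subtracted, the named genes whose pattern was most like that of THI4 were ATG10 (Pearson r 0.988), SPI1 (0.987), SPO1 (0.986), YNL194C (0.986) and YFL012W (0.985). Since they were picked by r to THI4 on these arrays, they share its split among strains by construction. SPI1, a cell wall protein, averaged 0.07 in the deletion, 1.05 in Epl1 1:380, 0.89 in Epl1 1:485, 0.04 in Eaf1 1:982 and -0.02 in tagged Epl1. The other members were further away, with r of 0.864 for SNZ3, 0.836 for THI7, 0.742 for THI20, 0.485 for THI6, 0.395 for THI21, -0.329 for SNZ1 and -0.796 for SNO1. For SNZ3 the most alike were RMR1 (0.989), AIM45 (0.981), DAL4 (0.979), GLO2 (0.969) and DCG1 (0.966). DCG1 averaged -0.43 in the deletion, 0.48 in Epl1 1:380, 0.51 in Epl1 1:485, -0.07 in Eaf1 1:982 and 0.10 in tagged Epl1, and DAL4, the allantoin permease, -0.23, 0.40, 0.37, -0.06 and 0.04 in the same strains. RMR1, AIM45 and GLO2 moved less. Against the controls they differed by 0.04 to 0.14 in the truncations and by -0.10 to -0.07 in the deletion. A high r therefore does not mean a change of like size. These r values describe 10 arrays that come in pairs of one strain and share the pool, so they carry no p.

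The genes around SNZ3, SNO2 and SNZ1 were set beside them by place. DDI3, the near-identical copy of DDI2 that lies next to SNO3, was higher by 0.95 in Epl1 1:380, 0.89 in Epl1 1:485 and 0.68 in the deletion, and DDI2, next to SNO2, by 1.01, 0.87 and 0.70; these neighbours were named for their place, outside the rule for named genes, and carry no test. On the other side, AAD6 beyond THI5 differed by -0.30, -0.24 and -0.07, and AAD14 beyond THI12 by 0.10, 0.02 and -0.01. MTG1, next to SNZ1, differed by 0.22, 0.16 and 0.04, and ATP25 beyond it by 0.13, 0.16 and 0.04. On the other side of SNZ1, CTF13 beyond SNO1 differed by -0.02, -0.05 and 0.23, and UTP15 beyond CTF13 by -0.68, -0.54 and -0.50. COS4, beyond DDI3, differed by 0.45, 0.44 and -0.05, values close to those of SNZ3 in the truncations (0.44 and 0.38), while SNZ3 was at -0.22 in the deletion. AGP3, beyond AAD6 and as many genes from SNZ3 as COS4, differed by 0.04, -0.003 and 0.02. RPD3, beyond AAD14, differed by 0.41, 0.38 and 0.28. The nearest genes to SNZ3, SNO3 and THI5, had no named spot.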

How the data were processed

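Per the file headers, the deposited scanner tables hold the intensity of each spot, with the mean signal and the local background per channel. The authors' matrix gives the log2 ratio of the Cy5 to the Cy3 channel, made per the labels by print-tip loess (span 0.4) without background subtraction, with a correction of gene-specific dye bias. Here, intensities were corrected with normexp (offset 50) and normalised by loess on 12776 gene spots (span 0.3), the sign of replicate a was reversed to give strain over pool, and spots that share a gene were averaged. limma 3.58.1 in R 4.3.3 fitted 1 coefficient per strain (lmFit, eBayes; 5 residual and 3.10 prior degrees of freedom) over 6377 features. The median half-width of a 95% interval was 0.26 log2 units, and the number of arrays limits this precision. The R64 gene table, used for names, lengths and gene order, held 5255 of 5315 names as symbols and 58 as synonyms. The files name no build, so no coordinates are given.

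The members and lists were chosen with earlier results of these data known. THI4 and SNZ3 were not tested against the strains' controls, and no member between deletion and truncations. Named were all members, genes of the other lists that were called or among the 3 largest differences of a list in a tested comparison, the 5 genes most alike to THI4 and to SNZ3, and EAF1. Replicate letter marks the dye orientation; deviations of same-letter arrays correlated at 0.64 to 0.87 in 10 of 10 pairs of strains, so the letter was also used as a block. Alternatives were no background correction, print-tip loess, median centring, centring on 8 of 14 added RNA reporters, the deposited ratios, leaving out dim features, the block, other limits and leaving out each array. The steps were tested on simulated data with independent noise on each array. Those data lack the deviations that same-letter arrays share, so that test cannot speak to the pairing by letter.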

Additional observations from a re-analysis of the deposited data

Results flagged for a closer look

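SNZ3 moved in opposite directions from its controls: in Epl1 1:380 by 0.444 relative to tagged Epl1, against -0.217 in the eaf1 deletion relative to Eaf1 1:982. In Epl1 1:485 it moved by 0.379, against the same -0.217 in the deletion. Every replicate of the truncations lay above tagged Epl1, and every replicate of the deletion lay below Eaf1 1:982, on the log2 scale. The difference between these effects was not tested, since it rests on the contrast between truncation and deletion that the genes were picked on. Centring on added RNA turned the deletion's value to 0.02 and left those of the truncations at 0.70 and 0.55.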

How the results depend on the processing

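Calls in Epl1 1:380, Epl1 1:485 and the eaf1 deletion against their controls numbered 219, 154 and 157, and 105, 58 and 42 with median centring and 39, 19 and 0 with centring on added RNA, which shifts the median of all features by 0.29, 0.20 and 0.27; the cause was not tested. They were 225, 159 and 162 with the replicate block, which pairs arrays by dye orientation and changed no call of a named gene, and 199 to 227, 124 to 174 and 141 to 158 without 1 array. Between the truncations and between the controls, every alternative run gave 0 calls. In the deletion, centring turned THI4 to 0.04 (median) and 0.28 (added RNA). Of 86 gene differences, 35 changed sign under at least 1 alternative, the largest of them 0.24 in size; untested ones (such as SNZ3 in the deletion, 0.02 with added RNA) are among the 35, and the tested ones follow. Centring on added RNA gave, against tagged Epl1, SNZ1 0.22 and 0.045, SNO1 0.16 and 0.092 in Epl1 1:380 and Epl1 1:485, BUD17 0.18 and TPN1 0.11 in Epl1 1:380, then BUD16 0.11 in the deletion, and PHO3 0.012 and SNO2 0.065 between the truncations. Median centring gave PDX3 -0.073 and -0.098 in the truncations, print-tip loess SNO2 -0.017 in Epl1 1:485 and 0.026 between the truncations (0.015 in the deposited ratios), and no background correction SNO1 -0.014 in the deletion. Without 1 array, in Epl1 1:380 SNZ1 ran from -0.27 to 0.22, PDX3 from -0.022 to 0.15 and TPN1 from -0.15 to 0.014. In Epl1 1:485, SNZ1 ran from -0.36 to 0.15, SNO1 from -0.48 to 0.011, SNO2 from -0.11 to 0.26, THI6 from -0.051 to 0.24, THI21 from -0.010 to 0.14 and PDX3 from -0.044 to 0.13. In the deletion, SNO1 ran from -0.14 to 0.15, THI7 from -0.0020 to 0.24, THI21 from -0.065 to 0.12, PHO3 from -0.014 to 0.46 and BUD16 from -0.27 to 0.022. Between the truncations, BUD17 ran from -0.26 to 0.046, TPN1 from -0.027 to 0.13, SNO2 from -0.22 to 0.16 and PDC5 from -0.064 to 0.45; between the controls, THI80 ran from -0.20 to 0.46, KGD1 from -0.11 to 0.33 and TPN1 from -0.11 to 0.026. THI4, THI21 and SNO1 are dim, as are THI11, THI2 and TKL2, so the 4782 features left without dim ones hold no value for them.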
